A study of Mus musculus with 14 samples.

Results

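Fibroblast growth factors (FGFs) are secreted proteins that bind receptor tyrosine kinases at the cell surface, and 10 genes of this system were followed here. They are the ligands Fgf1, Fgf2, Fgf7, Fgf9, Fgf10 and Fgf18 and the receptors Fgfr1, Fgfr2, Fgfr3 and Fgfr4. They were picked by symbol, and all 10 were found among the 48795 genes of the count table through GENCODE M21. RNA was sequenced from explant cultures, in which fibroblasts grow out of pieces of lung or dorsal skin, scraped off plastic on day 14 without stimulation. Lung pieces stayed in the dish until then, whereas skin pieces were taken out on day 7. The mice were male C57BL/6J (wild type, WT) and Rel -/- (knockout, KO), aged 8 to 10 weeks. The product of Rel, c-Rel, is an NF-kappaB subunit best known from lymphocytes. The 4 groups were KO-mLF (Rel -/- lung, 4 libraries: 7, 8, 9 and 10), WT-mLF (wild-type lung, 5 libraries: 1, 3, 4, 5 and 23), KO-mDF (Rel -/- skin, 3 libraries: 18, 19 and 20) and WT-mDF (wild-type skin, 2 libraries: 11 and 22). Values per library follow that order of numbers within a group. No label ties a library to an animal, so every p-value rests on the spread between these libraries, which may be technical.

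Heparan sulfate on the cell surface and in the matrix holds FGFs at their receptors, and a bound receptor signals mainly through the RAS and MAP kinase cascade. Fibroblasts are known as a source of FGF7 (keratinocyte growth factor) and FGF10, which act on the epithelium through the IIIb splice form of FGFR2, while mesenchymal cells mainly carry IIIc forms of FGFR1 and FGFR2. In the lung FGF10 drives airway branching, and in the skin FGF7 takes part in wound repair. The values are gene counts, so splice forms of a receptor cannot be told apart. RNA of a whole culture was read, so fewer cells of a type and less RNA per cell cannot be told apart either.

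Fgf7 is shown with its upstream sequence because it is the ligand that passed the test below, and Fgf10 because it is the other ligand of the same receptor form. Each run holds the 250 bases before the RefSeq start of the gene (GRCm38.p6, forward strand), chr2:126034408-126034657 for Fgf7 and chr13:118714449-118714698 for Fgf10. The Fgf7 run ends directly before the gene as counted, which starts at 126034658. The Fgf10 run lies inside the gene as counted, which spans 118669791-118792115, and so describes an internal start. Capitals mark CG dinucleotides, the sites at which DNA can be methylated.
Fgf7: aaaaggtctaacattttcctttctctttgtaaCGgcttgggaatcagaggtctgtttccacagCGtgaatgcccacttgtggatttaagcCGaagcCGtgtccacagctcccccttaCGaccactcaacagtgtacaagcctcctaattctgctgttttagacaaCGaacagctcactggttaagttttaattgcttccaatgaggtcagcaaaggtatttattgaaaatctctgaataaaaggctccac
Fgf10: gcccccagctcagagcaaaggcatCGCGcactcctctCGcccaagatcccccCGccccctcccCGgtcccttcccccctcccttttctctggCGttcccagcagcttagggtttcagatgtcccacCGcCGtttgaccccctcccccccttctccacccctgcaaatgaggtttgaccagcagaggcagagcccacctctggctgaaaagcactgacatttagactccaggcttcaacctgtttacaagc
The Fgf7 run held 6 CG dinucleotides at 43.6% G and C, and the Fgf10 run held 8 at 61.2%. Over the 32851 promoter windows of the same table the medians were 6 and 52.4%. In the full windows, 250 bases before to 50 after the start, TATAAA was searched on the given strand. A narrow kappaB-type sequence and TGACTCA (an AP-1 motif) were searched on both strands. The former allowed any base at some positions and had fixed letters at the others. TATAAA, the kappaB-type sequence and TGACTCA were found in 8.32%, 1.63% and 5.20% of all windows. None was found in the 9 windows of the 8 members listed there. KappaB sites with other letters at the fixed positions were not searched, so an absence of kappaB sites is not shown. Fgf1 and Fgfr1 were not in that table.

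The libraries held between 12780350 and 30987933 counts, except WT-mDF 22 with 2663437. Rel, the deleted gene, was read at 0.0607, 4.34, 1.44 and 4.03 CPM (counts scaled to a common library size with TMM-adjusted totals) in KO-mLF, against 7.54, 13.8, 1.05, 13.3 and 16.8 CPM in WT-mLF. In KO-mDF it had 0.0334, 9.08 and 8.72 CPM, against 11.4 and 9.28 CPM in WT-mDF. The Rel level of the libraries labelled KO-mDF 19 and 20 thus lay next to wild-type skin, which goes against their label. In the lung WT-mLF 4, with 25 counts of Rel, lay below KO-mLF 8, 9 and 10, which also goes against its label. Directions follow the labels, and the member fold changes that rest on these libraries are also given without them. The female transcript Xist was read at 77.6 CPM in WT-mLF 1 and 624 CPM in WT-mDF 22, against at most 0.611 CPM in the other libraries, although the mice are described as male. In KO-mLF 7, WT-mDF 11, WT-mLF 4 and KO-mDF 18, 11.5%, 8.22%, 5.78% and 3.37% of genes that averaged at least 5 CPM in the other libraries of the tissue had 0 counts, against at most 0.728% elsewhere. KO-mLF 7, WT-mLF 4 and KO-mDF 18 were also the libraries with the lowest Rel, whereas WT-mDF 11 had 11.4 CPM of it. The part of such gaps in the Rel levels was not tested. The treatment label of KO-mLF 10 says skin where its title and source say lung, and the library was kept with lung.

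Each of the 10 fibroblast markers was read in every group, with summed levels of 23645 to 69553 CPM in KO-mLF, 28675 to 157375 in WT-mLF, 11312 to 25716 in KO-mDF and 20908 to 33420 in WT-mDF. Leukocyte and macrophage markers summed to 7169 to 24735 CPM in KO-mLF and 5306 to 19940 in WT-mLF, but to 109 to 157 in KO-mDF and 28.8 to 118 in WT-mDF. The lung cultures thus held abundant macrophage RNA, led by lysozyme Lyz2, which the skin cultures nearly lacked. Keratinocyte markers summed to 1203 to 2896 CPM in KO-mDF, against 63.6 to 138 in WT-mDF, and to at most 168 in either lung group, where Krt5 was at 0. The other lists reached at most 1038 CPM for lung epithelium (in KO-mDF, with the surfactant genes Sftpc, Sftpb and Sftpa1 at 0), 113 for endothelium, 241 for mesothelium, 2328 for adipocytes, 844 for skeletal muscle and 226 for Schwann cells and melanocytes.

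Fgf7, Fgf2, Fgf10 and Fgfr1 were the 4 most abundant members per kilobase in each of the 4 groups. In KO-mLF the mean levels were 23.8 CPM per kb of merged exons for Fgf2, 20.9 for Fgfr1, 20.5 for Fgf7 and 9.86 for Fgf10. In WT-mLF the order was Fgf7 at 47.9 CPM per kb, Fgf2 at 34.4, Fgfr1 at 30.1 and Fgf10 at 19.7. In both lung groups each neighbour in this order overlapped with the next in range over libraries. Within each of the 4 KO-mLF libraries, however, Fgf2 exceeded Fgfr1 and Fgf7 exceeded Fgf10. In KO-mDF Fgf7 led at 76.0 CPM per kb, followed by Fgfr1 at 53.6, Fgf2 at 24.3 and Fgf10 at 17.5. WT-mDF had the same order, with 63.6 for Fgf7, 41.9 for Fgfr1, 21.7 for Fgf2 and 21.5 for Fgf10. In both skin groups the range of Fgfr1 lay above that of Fgf2, while Fgf7 and Fgfr1 overlapped. Every other member averaged at most 3.56 CPM per kb in any group. Divided by the longest transcript instead, Fgfr1 came first in all 4 groups, at 41.0 CPM per kb in KO-mLF, 59.0 in WT-mLF, 105 in KO-mDF and 82.0 in WT-mDF.

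**Figure D1:**
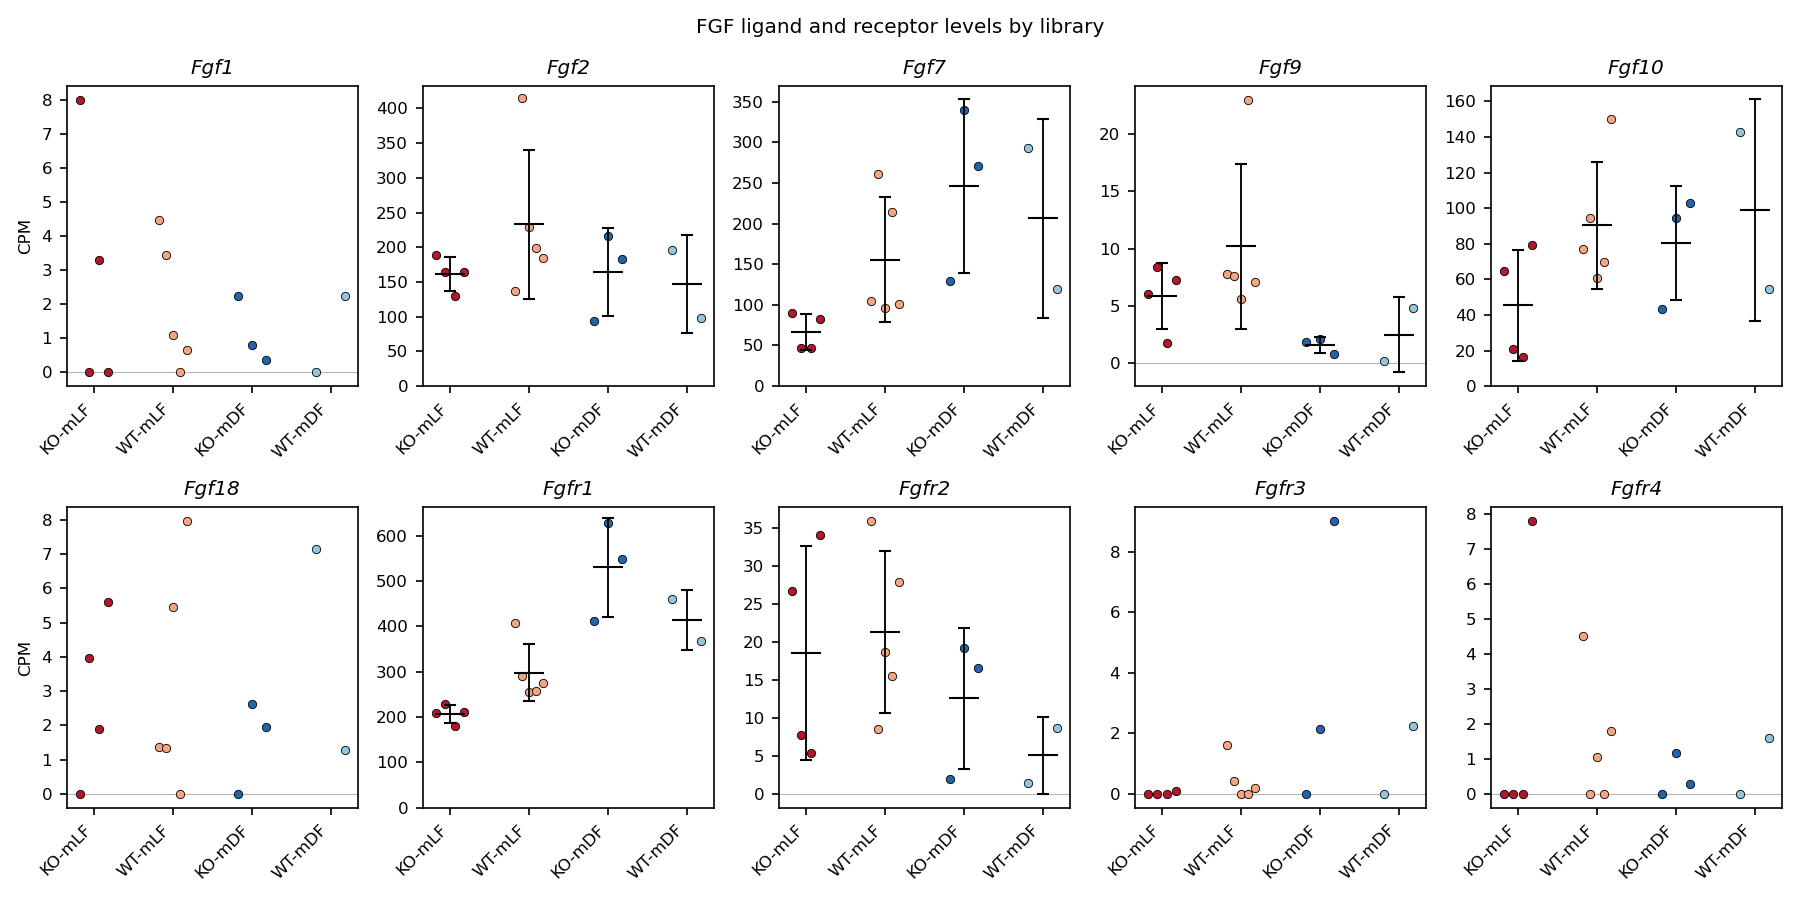
Level of each member in CPM on TMM-scaled totals (y axis, linear, own scale per panel), 1 point per library and 1 column per group. Bars show the mean ± SD for the 6 members read in every library, and the other 4 have points only. Fgfr1 and Fgf7 in KO-mDF lie above every KO-mLF library, and Fgf1, Fgf18, Fgfr3 and Fgfr4 include libraries at 0.

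Fgf7 (ENSMUSG00000027208, GRCm38 chromosome 2, 126034658-126091185, forward strand) was read at 89.6, 47.4, 46.7 and 82.4 CPM in KO-mLF. In WT-mLF it had 104.7, 95.7, 214, 101 and 261 CPM. All 4 KO-mLF libraries were below all 5 WT-mLF libraries, and WT-mLF itself split into 3 libraries near 100 CPM and 2 above 200. In the skin Fgf7 had 129.7, 339 and 271 CPM in KO-mDF, against 293 and 120.0 CPM in WT-mDF. These skin groups overlapped, with KO-mDF 18 and WT-mDF 22 low and the other 3 libraries high.

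Fgf10 (ENSMUSG00000021732, chromosome 13, 118669791-118792115, forward strand) had 64.9, 20.997, 16.4 and 79.2 CPM in KO-mLF, against 77.0, 60.7, 69.8, 150.3 and 94.7 CPM in WT-mLF. KO-mLF 8 and 9 were the lowest of the 9 lung libraries, and KO-mLF 7 and 10 lay within the range of wild type. In the skin it had 43.6, 94.3 and 103 CPM in KO-mDF, against 143 and 54.7 CPM in WT-mDF, and the groups overlapped. The same 2 skin libraries as for Fgf7, KO-mDF 18 and WT-mDF 22, were the lowest. An antisense gene, Gm16263, shares 123 exon bases with Fgf10 and had 697 counts in all libraries, against 21103 for Fgf10.

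Fgf2 (ENSMUSG00000037225, chromosome 3, 37348346-37410108, forward strand) encodes basic FGF, a mitogen of fibroblasts that leaves cells without a signal peptide. It had 189, 164, 129.7 and 164 CPM in KO-mLF, against 137, 229.8, 199, 184 and 415 CPM in WT-mLF. WT-mLF 23 stood highest of all libraries, and the other 4 wild-type lung libraries overlapped with or lay just above KO-mLF. In KO-mDF Fgf2 had 94.0, 217 and 183 CPM, against 197 and 97.6 CPM in WT-mDF, again with KO-mDF 18 and WT-mDF 22 low. Nudt6 lies on the opposite strand with 640 shared exon bases and had 584 counts in all libraries, against 52600 for Fgf2. Whether counting used the strand is not given in the sources used here, so reads from such partners cannot be told apart.

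Fgf9 (ENSMUSG00000021974, chromosome 14, 58070547-58112720, forward strand) is known from the embryonic lung, where it comes from mesothelium and epithelium and acts on the mesenchyme. It had 6.07, 8.40, 1.76 and 7.29 CPM in KO-mLF, against 7.78, 5.58, 23.0, 7.14 and 7.63 CPM in WT-mLF. In KO-mDF it had 1.87, 2.15 and 0.793 CPM, against 0.169 and 4.80 CPM in WT-mDF. Both skin groups lay at or under 4.80 CPM, and all lung libraries but KO-mLF 9 lay above that.

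Fgf18 and Fgf1 were read at low levels and not in every library. Fgf18 (ENSMUSG00000057967, chromosome 11, 33117430-33147400, reverse strand), a ligand known from lung and skeletal development, had 0, 3.97, 1.90 and 5.60 CPM in KO-mLF and 1.37, 5.44, 0, 7.96 and 1.34 CPM in WT-mLF. In the skin it had 0, 2.64 and 1.95 CPM in KO-mDF, against 7.16 and 1.28 CPM in WT-mDF. Fgf1 (ENSMUSG00000036585, chromosome 18, 38838673-38929472, reverse strand), which binds all FGF receptors, had 8.01, 0, 3.30 and 0 CPM in KO-mLF and 4.48, 1.10, 0, 0.663 and 3.45 CPM in WT-mLF. Its skin levels were 2.24, 0.798 and 0.361 CPM in KO-mDF, against 0 and 2.24 CPM in WT-mDF. Groups overlapped for both genes in both tissues.

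Fgfr1 (ENSMUSG00000031565, chromosome 8, 25513654-25575718, forward strand), the main FGF receptor of mesenchymal cells, had 208, 228, 181 and 210.0 CPM in KO-mLF. In WT-mLF it had 407, 255, 257, 276 and 291 CPM. The highest KO-mLF library lay below the lowest WT-mLF library, and WT-mLF 1 stood above the other 4. In the skin Fgfr1 had 412, 629 and 548 CPM in KO-mDF, against 459.8 and 367 CPM in WT-mDF. Every skin library but WT-mDF 22 exceeded every lung library.

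Fgfr2 (ENSMUSG00000030849, chromosome 7, 130162451-133123350, reverse strand, an end that includes a transcript reading through Ctbp2) had 26.7, 7.76, 5.37 and 34.0 CPM in KO-mLF. In WT-mLF it had 35.9, 18.6, 15.5, 27.9 and 8.56 CPM. KO-mLF 8 and 9 were low and 7 and 10 high, the same split as for Fgf10. In the skin it had 1.87, 19.2 and 16.6 CPM in KO-mDF, against 1.44 and 8.64 CPM in WT-mDF, and KO-mDF 18 and WT-mDF 11 were lowest. Ctbp2 shares 314 exon bases with it on the same strand and had 12850 counts in all libraries, against 4439 for Fgfr2, so a share of the Fgfr2 counts may belong to Ctbp2.

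Fgfr3 and Fgfr4 were at 0 in many libraries and reached 9.01 and 7.80 CPM in 1 library each. Fgfr3 (ENSMUSG00000054252, chromosome 5, 33721674-33737068, forward strand), known for its role in growing cartilage, had 0, 0, 0 and 0.102 CPM in KO-mLF and 1.60, 0, 0, 0.204 and 0.412 CPM in WT-mLF. It had 0, 2.15 and 9.01 CPM in KO-mDF, against 0 and 2.24 CPM in WT-mDF. Fgfr4 (ENSMUSG00000005320, chromosome 13, 55152640-55168759, forward strand), the receptor of the bile acid hormone FGF15 in liver, had 0, 0, 0 and 7.80 CPM in KO-mLF and 4.52, 1.07, 0, 1.79 and 0 CPM in WT-mLF. It had 0, 1.17 and 0.288 CPM in KO-mDF, against 0 and 1.60 CPM in WT-mDF. A count of 0 allows up to 3 counts, or 0.1002 CPM in the deepest and 0.959 CPM in the shallowest library, counting error only. Of the 21 values at 0 among Fgf1, Fgf18, Fgfr3 and Fgfr4, 13 came from the 4 libraries with the most expressed genes at 0, and the part of that in the levels was not tested.

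Shares within a library do not depend on how its total was scaled, but those of members at or near 0 remain uncertain. They also depend on the length used, here merged exons. Fgfr1 made up 94.96% to 99.7% of the summed receptor level per kb in the skin libraries and 79.4% to 97.2% in the lung libraries. Fgfr2 made up 0.299% to 2.80% in the skin and 2.73% to 12.3% in the lung, so receptor transcripts were mostly Fgfr1 in every library. Among the 6 ligands Fgf7 made up 62.0% to 65.4% in KO-mDF and 56.2% to 57.7% in WT-mDF, against 30.1% to 38.1% in KO-mLF and 31.4% to 57.2% in WT-mLF. Fgf2 made up 18.5% to 21.9% in the skin and 25.4% to 49.9% in the lung. The ratio of Fgf7 to Fgf2 per kb was 2.57 to 3.27 over the 5 skin libraries and 0.603 to 2.25 over the 9 lung libraries, with no overlap between the tissues. Between genotypes that ratio was 0.603 to 1.05 in KO-mLF, against 0.869 to 2.25 in WT-mLF, and 2.88 to 3.27 in KO-mDF, against 2.57 to 3.11 in WT-mDF, with overlap in both tissues. This ratio was chosen after its values were seen and has no test.

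**Figure D2:**
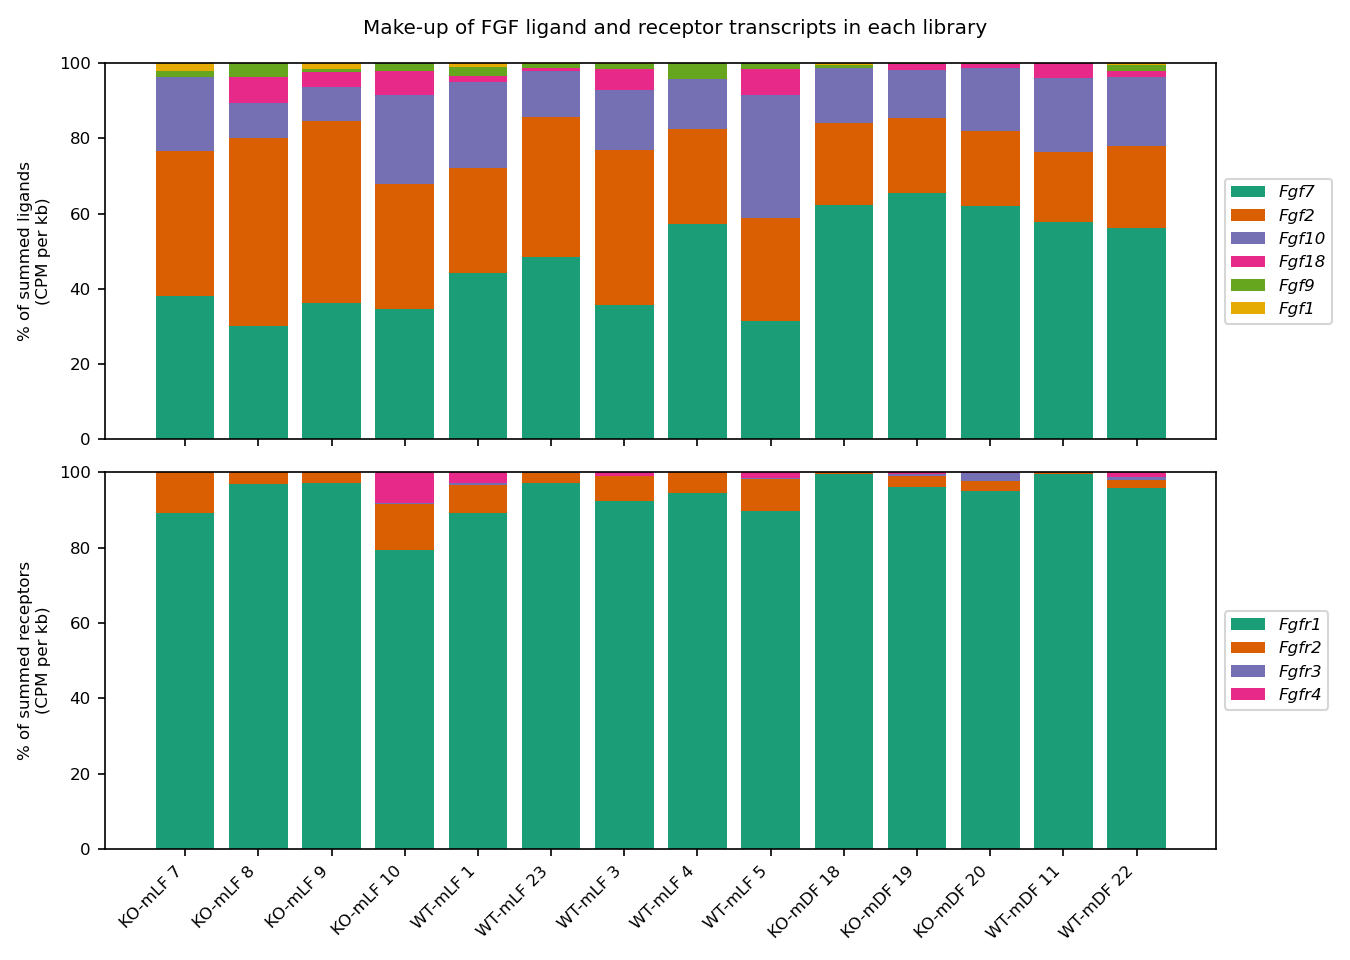
Share of each ligand (upper panel) and receptor (lower panel) in the summed level of its class, in % of CPM per kb of merged exons (y axis from 0 to 100), 1 bar per library, ordered by group. Fgfr1 fills 79.4% or more of every receptor bar, and Fgf7 fills 56.2% or more of each skin ligand bar.

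The loss of Rel was the question of the first comparison, and no member passed the test in the lung. At an adjusted p under 0.05 (edgeR's quasi-likelihood test, Benjamini-Hochberg over 16408 genes), 0 of 10 members and 0% of all genes were called in KO-mLF against WT-mLF. At an unadjusted p under 0.05 there were 2 of 10 members, against 6.31% of all genes (1036). Fgf7 averaged 66.5 ± 22.7 CPM in KO-mLF and 156 ± 77.1 CPM in WT-mLF (SD, n = 4 and 5), a log2 fold change of -1.22 ± 0.41 (SE) with an adjusted p of 0.781. Fgfr1 averaged 207 ± 19.5 CPM in KO-mLF and 297 ± 63.2 CPM in WT-mLF, a log2 fold change of -0.52 ± 0.22 with an adjusted p of 0.781. These were the 2 members whose groups did not overlap, both lower in KO-mLF. Over all genes, 1.43% were lower and 0.811% higher without overlap. DESeq2 and limma-voom also called none of the 10 members.

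The other members read in every library were also lower on average in KO-mLF, within the spread. Fgf10 averaged 45.4 ± 31.4 CPM in KO-mLF and 90.5 ± 35.7 CPM in WT-mLF, a log2 fold change of -0.997 ± 0.48. Fgf2 averaged 162 ± 24.4 CPM in KO-mLF and 233 ± 107 CPM in WT-mLF (-0.53 ± 0.34). Fgf9 had a log2 fold change of -0.80 ± 0.97 and Fgfr2 of -0.21 ± 0.77, and all 4 had adjusted p-values of 0.781 or more. Without WT-mLF 4 the log2 fold change was -1.04 for Fgf7, -0.54 for Fgfr1, -1.04 for Fgf10, -0.55 for Fgf2, -0.23 for Fgf9 and -0.26 for Fgfr2, with none called. Over the 10 members 8 fitted fold changes were negative, with a median of -0.53, against 55% negative and a median of -0.08 over all genes. Fibroblast markers were lower at 8 of 10 genes as well, with a median of -0.57, and leukocyte and macrophage markers higher at 8 of 10, with a median of 0.69. Lung epithelium markers were lower at 6 of 8, with a median of -1.72, and adipocyte markers at 3 of 3, with a median of -0.67. None of these lists held a call, and their part in the member values was not tested.

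In the skin the genotype comparison gave 0 of 10 members and 0% of all genes called by edgeR. At an unadjusted p under 0.05 there were 0 of 10 members and 1024 genes (6.24%), and DESeq2 and limma-voom called none of the 10 members. Fgf7 averaged 247 ± 107 CPM in KO-mDF and 206 ± 122 CPM in WT-mDF (SD, n = 3 and 2), a log2 fold change of 0.25 ± 0.54. Fgfr1 averaged 529.7 ± 109 CPM in KO-mDF and 413 ± 65.8 CPM in WT-mDF, a log2 fold change of 0.36 ± 0.30. All members overlapped between these groups, while 14.8% of all genes were higher and 10.3% lower without overlap. Fgf2 (0.16 ± 0.46), Fgf9 (-0.57 ± 1.32), Fgf10 (-0.31 ± 0.63) and Fgfr2 (1.36 ± 1.11) were as uncertain, and the smallest adjusted p of a member was 0.866. With KO-mDF 18 as the only Rel -/- skin library, which is assumed to vary like the other groups, the log2 fold change was -0.68 for Fgf7, -0.013 for Fgfr1, -0.66 for Fgf2, -0.37 for Fgf9, -1.19 for Fgf10 and -1.40 for Fgfr2. In KO-mDF 18, 3.37% of expressed genes were at 0, against 0.0469% and 0.103% in KO-mDF 19 and 20. The part of such gaps in these values was not tested. Keratinocyte markers were higher in KO-mDF at 11 of 13 genes, the median value being 5.46 with none called. KO-mDF 18 alone summed to 2896 CPM, the highest of the 3, and their part was not tested.

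Whether the genotype effect differed between tissues was tested as the effect in skin minus the effect in lung. EdgeR called 0 of 10 members and 0% of all genes, and 2 members and 766 genes (4.67%) had an unadjusted p under 0.05. For Fgf7 the difference was 1.48 ± 0.68 on the log2 scale and for Fgfr1 0.88 ± 0.37, both with an adjusted p of 0.9999. The opposite signs in lung and skin are therefore not shown to differ. Without KO-mDF 19 and 20 the difference was 0.53 for Fgf7 and 0.50 for Fgfr1, and both members then had negative values in the skin as in the lung.

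**Figure D3:**
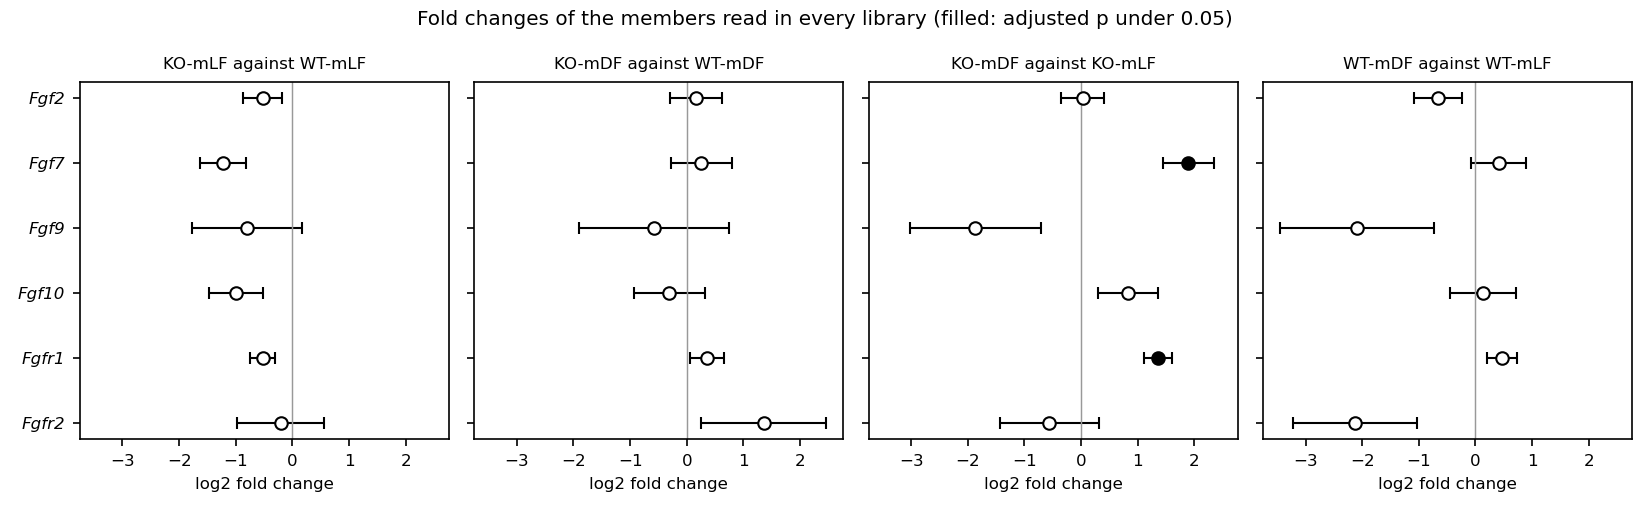
Log2 fold change ± SE (x axis) of the 6 members read in every library (y axis) in 4 comparisons, the first group named over the second. Filled points have an edgeR adjusted p under 0.05, which are Fgf7 at 1.89 and Fgfr1 at 1.36 in KO-mDF against KO-mLF.

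Between tissues, 2 members were higher in skin than in lung among the Rel -/- cultures. In KO-mDF against KO-mLF, 2 of 10 members were called, against 5.05% of all genes (829 of 16408, with 1.82% higher and 3.23% lower). Fgfr1 averaged 529.7 ± 109 CPM in KO-mDF and 207 ± 19.5 CPM in KO-mLF (SD, n = 3 and 4), a log2 fold change of 1.36 ± 0.25 with an edgeR adjusted p of 0.00324. Fgf7 averaged 247 ± 107 CPM in KO-mDF and 66.5 ± 22.7 CPM in KO-mLF, a log2 fold change of 1.89 ± 0.45 with an adjusted p of 0.0210. Both were higher in 3 of 3 KO-mDF libraries than in any KO-mLF library, as were 11.6% of all genes, while 8.54% were lower without overlap.

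The Fgfr1 call held with any 1 library left out, at log2 fold changes of 1.21 to 1.54. The Fgf7 call ended without KO-mLF 8 (1.76, adjusted p 0.0766), KO-mLF 9 (1.76, 0.0800), KO-mDF 19 (1.59, 0.108) or KO-mDF 20 (1.84, 0.0818). Without both KO-mDF 19 and 20, the libraries with Rel near wild type, neither was called, at 0.96 for Fgf7 (adjusted p 0.524) and 0.99 for Fgfr1 (0.199).

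Fgf2 did not separate the tissues among Rel -/- cultures, at a log2 fold change of 0.03 ± 0.38, and Fgf10 (0.82 ± 0.53), Fgf9 (-1.87 ± 1.15) and Fgfr2 (-0.56 ± 0.88) missed the threshold. Without KO-mDF 19 and 20 these values were -0.78 for Fgf2, -0.060 for Fgf10, -1.65 for Fgf9 and -3.30 for Fgfr2. Fgfr3 had 160 counts in KO-mDF and 2 in KO-mLF, a ratio of 107 per TMM-scaled total with a 95% counting interval of 29.1 to 889. That interval rests on pooled counts and leaves out the spread between libraries. All 160 counts came from KO-mDF 19 and 20, KO-mDF 18 had 0, and the adjusted p was 0.195. Limma-voom with quality weights called Fgfr3 (adjusted p 0.0103) and Fgf10 (log2 fold change 1.68, 0.0111), among 27.4% of all genes. EdgeR without the 4 libraries with the most genes at 0 called Fgfr3 (0.0399), among 2171 of 17485 genes.

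Among wild-type cultures no member was called between tissues. In WT-mDF against WT-mLF edgeR called 0 of 10 members, against 2.97% of all genes (487, with 0.902% higher and 2.07% lower). At an unadjusted p under 0.05 there were 0 of 10 members and 13.2% of all genes, and DESeq2 and limma-voom called none of the 10 members. Fgfr1 averaged 413 ± 65.8 CPM in WT-mDF and 297 ± 63.2 CPM in WT-mLF (SD, n = 2 and 5), a log2 fold change of 0.48 ± 0.27 with an adjusted p of 0.495. Fgf7 averaged 206 ± 122 CPM in WT-mDF and 156 ± 77.1 CPM in WT-mLF (0.41 ± 0.48). Fgfr2 (-2.12 ± 1.10, adjusted p 0.445), Fgf9 (-2.09 ± 1.37) and Fgf2 (-0.66 ± 0.43) had negative values and Fgf10 a value near 0 (0.13 ± 0.58). Fgf9 was the member whose groups did not overlap, lower in WT-mDF, as were 10.7% of all genes, while 7.12% were higher without overlap. Whether the tissue difference of Fgf7 and Fgfr1 is larger among Rel -/- than among wild-type cultures is the same contrast as the difference in genotype effect tested above, which called neither.

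Macrophage marker RNA moved with tissue in these comparisons. Of 10 leukocyte and macrophage markers 9 were called lower in KO-mDF against KO-mLF and 9 in WT-mDF against WT-mLF, with median log2 fold changes of -6.26 and -9.13. Keratinocyte markers moved with KO-mDF, with 8 of 13 called higher against KO-mLF. Of 8 lung epithelium markers 4 were called higher there (Epcam, Cdh1, Krt8 and Krt18) and 1 lower. Epcam and Cdh1 stand in the keratinocyte list as well, and the surfactant genes Sftpc, Sftpb and Sftpa1 were at 0 in KO-mDF. In that comparison 3 of 5 mesothelium and 1 of 7 endothelium markers were called lower and 2 of 6 skeletal muscle markers higher. In WT-mDF against WT-mLF 4 of 13 keratinocyte, 3 of 6 skeletal muscle and 1 of 5 Schwann cell and melanocyte markers were called higher. Fibroblast markers were higher at 5 and lower at 5 of 10 in KO-mDF against KO-mLF, with 1 called each way and a median of 0.10. The part of these cell types in the Fgf7 and Fgfr1 differences was not tested. Within the lung, WT-mLF 1 had the least macrophage marker RNA (5306 CPM) and the highest Fgfr1, while KO-mLF 7, next lowest at 7169 CPM, had 208 CPM of Fgfr1. WT-mLF 1 is a library with Xist, and KO-mLF 7 had the most expressed genes at 0 (11.5%). No relation of Fgfr1 to these markers was tested.

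**Figure D4:**
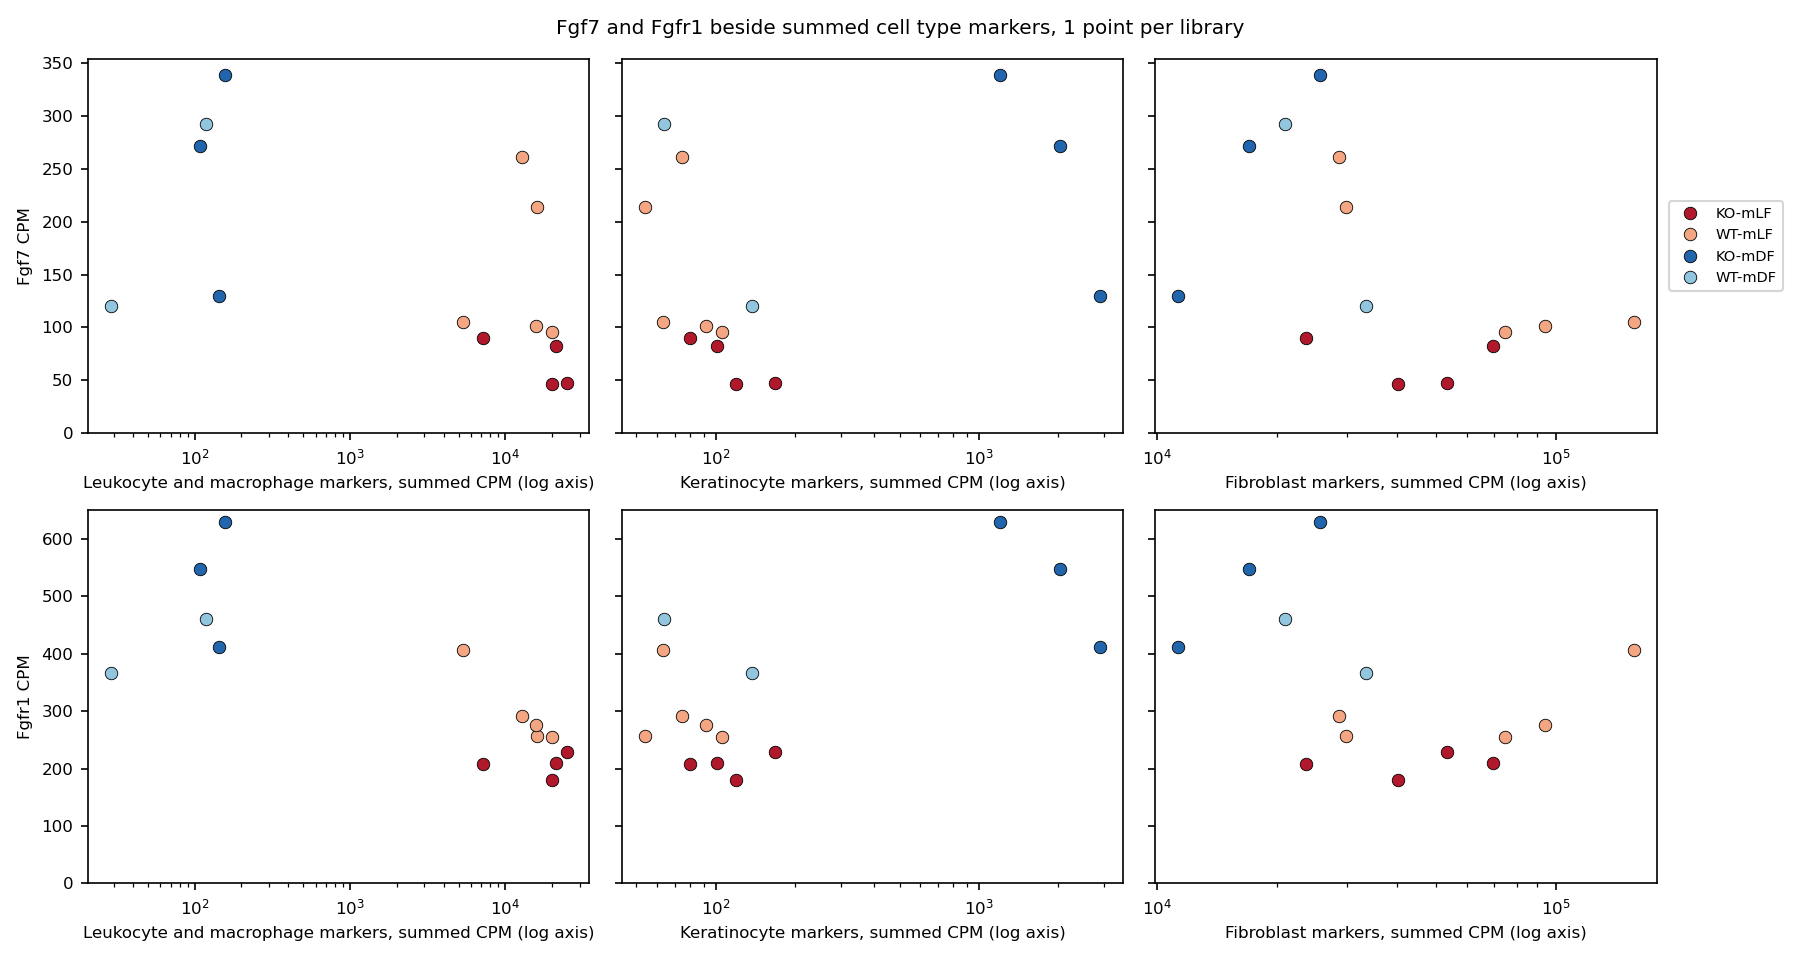
Fgf7 (upper row) and Fgfr1 (lower row) in CPM against the summed CPM of leukocyte and macrophage, keratinocyte and fibroblast markers (x axes, logarithmic), 1 point per library, coloured by group. Skin libraries sit at 157 CPM or less of leukocyte markers and lung libraries at 5306 CPM or more, and KO-mDF sits apart on the keratinocyte axis.

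Around the members, 98 genes of the pathway were read in 7 lists, of which 86 were tested. EdgeR called 0 of them in either genotype comparison or in their difference. At an unadjusted p under 0.05 there were 8 in the lung, 4 in the skin and 5 in the difference. Over all genes 6.31%, 6.24% and 4.67% met that threshold in the same order. DESeq2 also called 0 of the listed genes, and limma-voom called Spry1 alone, in the skin and in the difference. In KO-mDF against KO-mLF 6 of the 86 were called, 2 higher and 4 lower, and in WT-mDF against WT-mLF 4 were called, 3 higher and 1 lower. DESeq2 called 13 and 10 of them in these comparisons, and limma-voom 34 and 8. Over all genes edgeR called 5.05% and 2.97%, DESeq2 10.8% and 7.51%, and limma-voom 27.4% and 4.03%. None of the 6 calls in KO-mDF held without both KO-mDF 19 and 20, the adjusted p of Hpse then being 0.0521 and that of Nrp1 0.107.

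Among heparan sulfate makers, editors and core proteins (19 tested), the core protein Gpc1 rose and Hpse fell in skin in both genotypes. Gpc1, a glypican that carries heparan sulfate, averaged 227 ± 48.6 CPM in KO-mDF and 65.1 ± 18.2 CPM in KO-mLF (log2 fold change 1.80 ± 0.40, edgeR adjusted p 0.0140), and the call ended without KO-mLF 8 (0.0542) or KO-mDF 18 (0.0593). It averaged 423 ± 290 CPM in WT-mDF and 91.0 ± 40.2 CPM in WT-mLF (2.21 ± 0.41, 0.00591), and that call ended without WT-mDF 22 (1.26, 0.139). Hpse, the heparanase that cuts heparan sulfate, averaged 6.38 ± 1.59 CPM in KO-mDF and 148 ± 79.4 CPM in KO-mLF (-4.54 ± 0.67, 0.000642). It averaged 1.43 ± 0.699 CPM in WT-mDF and 87.8 ± 42.9 CPM in WT-mLF (-6.12 ± 0.92, 0.00146). Hpse fell beside the macrophage markers, whose part was not tested, and limma-voom did not call it among wild types (adjusted p 0.472).

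Of co-receptors and the decoy receptor (7 tested), edgeR called Nrp1 lower in KO-mDF against KO-mLF and Cdh2 higher in WT-mDF against WT-mLF. Nrp1, a co-receptor of growth factors, averaged 42.7 ± 11.8 CPM in KO-mDF and 229 ± 116 CPM in KO-mLF (-2.42 ± 0.49, edgeR adjusted p 0.00697). Cdh2, N-cadherin, which binds FGFR1, averaged 202 ± 16.0 CPM in WT-mDF and 63.6 ± 17.9 CPM in WT-mLF (1.67 ± 0.40, 0.0321). The other genotype had the same signs, uncalled by edgeR but called by limma-voom. Nrp1 was at -1.48 in WT-mDF against WT-mLF (edgeR adjusted p 0.195). Cdh2 was at 0.66 in KO-mDF against KO-mLF (0.382). The difference in genotype effect between tissues had an edgeR adjusted p of 0.9999 for both genes. The Cdh2 call ended without WT-mDF 11 (0.158), WT-mDF 22 (0.0843) or any of WT-mLF 1 (0.0564), 3 (0.0812), 4 (0.0640) or 5 (0.0584).

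Downstream of the receptors edgeR called 1 gene in each of 3 lists, all in KO-mDF against KO-mLF, while DESeq2 and limma-voom also made calls in WT-mDF against WT-mLF (Dusp6, Fos and Ier2 by DESeq2, and Braf, Gab1, Fosl1 and Spry1 by limma-voom). Grb2, an adaptor to RAS, fell to 74.7 ± 20.5 CPM in KO-mDF, against 179.6 ± 24.3 CPM in KO-mLF (-1.26 ± 0.29, edgeR adjusted p 0.0154), 1 of 19 adaptors and kinases. Dusp6, a phosphatase that shuts off ERK, fell to 50.1 ± 4.34 CPM in KO-mDF, against 133 ± 30.0 CPM in KO-mLF (-1.41 ± 0.34, 0.0224), 1 of 12 feedback inhibitors, of which 9 had positive values. Ier3, an early response gene that is also a target of NF-kappaB, rose to 331 ± 62.2 CPM in KO-mDF, against 55.5 ± 15.8 CPM in KO-mLF (2.58 ± 0.59, 0.0158), 1 of 12 target genes. The Grb2 call ended without KO-mDF 19 (0.0766) or 20 (0.121), the Dusp6 call without KO-mLF 9 (0.0775) or any of KO-mDF 18 (0.0795), 19 (0.104) or 20 (0.111), and the Ier3 call without KO-mLF 8 (0.0578), KO-mLF 9 (0.0519) or KO-mDF 20 (0.0646).

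In the genotype comparisons edgeR called no gene of the lists. In KO-mLF against WT-mLF 10 of these 12 were lower, with a median of -0.89 against -0.08 over all genes. Ier3 had 55.5 ± 15.8 CPM in KO-mLF and 141 ± 88.4 CPM in WT-mLF, and Fos 41.5 ± 64.6 and 347 ± 546 CPM in the same order, both with an adjusted p of 0.781. Fos spanned 0.182 to 138 CPM in KO-mLF and 15.8 to 1317 CPM in WT-mLF, with overlap. KO-mLF 10 and WT-mLF 1 set the upper ends and raised the means. The other KO-mLF libraries had at most 14.9 CPM, and the other WT-mLF libraries 15.8 to 186 CPM. The lower level in KO-mLF thus did not rest on these libraries alone. In KO-mDF against WT-mDF 8 of the 12 were higher, with a median of 0.75, and Ier2 had 77.9 ± 23.1 CPM in KO-mDF and 20.995 ± 4.34 CPM in WT-mDF (adjusted p 0.761). Without KO-mDF 19 and 20 the median of the list was 0.26, with 7 of 12 higher.

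The other lists are given by their medians, with no test of a list. In the lung the medians were -0.32 for other ligands (8 tested), 0.02 for co-receptors, -0.30 for heparan sulfate genes, -0.03 for adaptors and kinases, -0.15 for feedback inhibitors and 0.14 for export and binding proteins (9 tested). Sulf1, which trims heparan sulfate, had 225 ± 167 CPM in KO-mLF and 443 ± 107 CPM in WT-mLF, and Hspg2, the core protein perlecan, 416 ± 183 CPM in KO-mLF and 758 ± 313 CPM in WT-mLF, both with an adjusted p of 0.781. In the skin they were 0 for other ligands, -0.62 for co-receptors (6 of 7 lower), -0.45 for heparan sulfate genes (14 of 19 lower), 0.03 for adaptors and kinases, -0.10 for feedback inhibitors and 0.17 for export and binding proteins, against 0.01 over all genes. Without KO-mDF 19 and 20 they were -0.99 for co-receptors and -0.89 for heparan sulfate genes. Spry2, a feedback inhibitor of receptor signalling, had 134 ± 14.3 CPM in KO-mDF and 76.8 ± 38.5 CPM in WT-mDF (adjusted p 0.787).

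**Figure D5:**
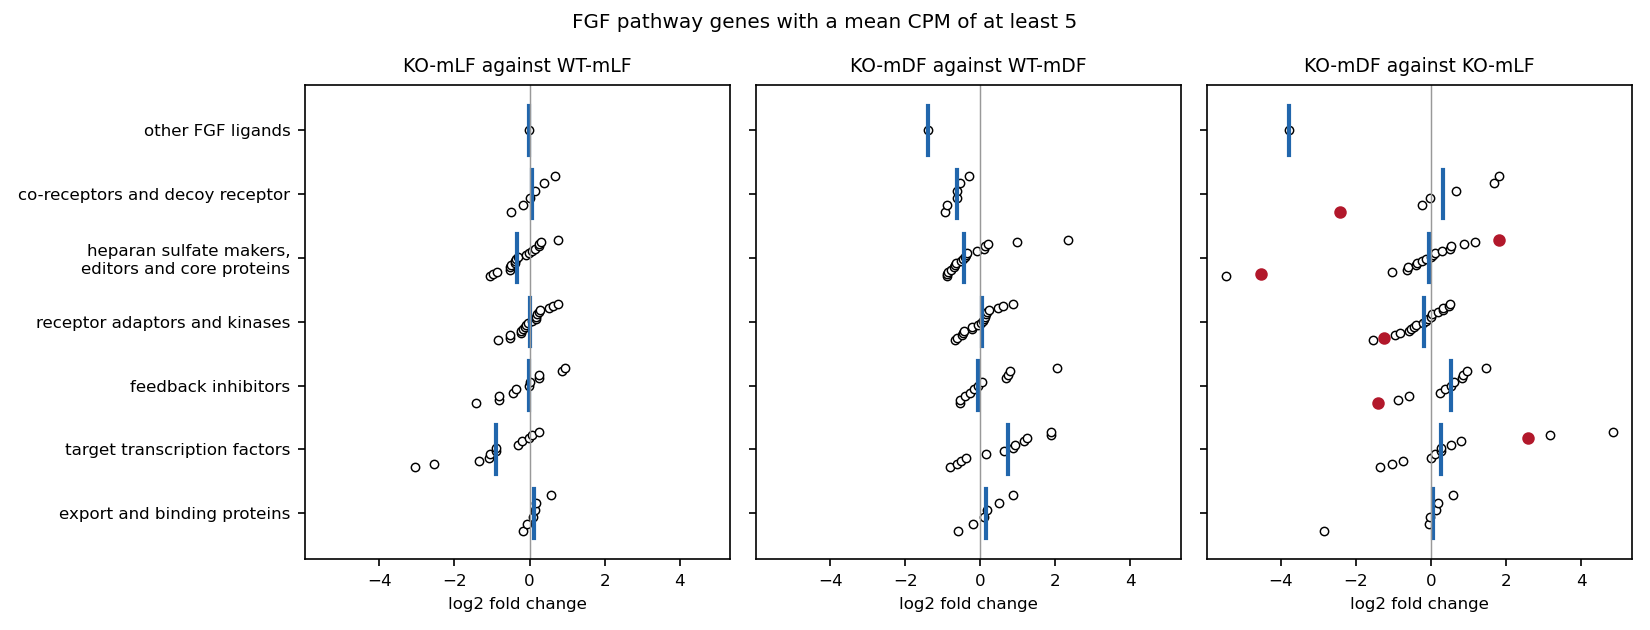
Log2 fold change (x axis) of pathway genes with a mean of at least 5 CPM over all libraries, 1 point per gene, in 7 lists (y axis) and 3 comparisons. Blue lines are medians over the genes drawn, and red points have an edgeR adjusted p under 0.05, which appear in KO-mDF against KO-mLF only among these 3.

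The genes with the profiles most like each member were sought among 10773 protein-coding genes by the root mean square difference of centred log2 levels over the 14 libraries. For Fgf7, whose own spread was 0.89, they were Rai14 (0.46), Layn (0.47) and Prrx1 (0.49), the last a transcription factor of mesenchyme. For Fgfr1, with a spread of 0.54, they were Osbpl5 (0.25), Prep (0.28) and P4ha2 (0.28), the last a subunit of collagen prolyl hydroxylase. Fgf2 (spread 0.51) was most like Gng12 (0.24), Cpd (0.30) and Steap2 (0.31), and Fgf10 (0.86) most like Ficd (0.43), Vash2 (0.54) and Med18 (0.59). Fgf9 (1.10) was most like Sipa1 (0.56), Ell (0.57) and Itpr1 (0.57), and Fgfr2 (1.20) most like Gli2 (0.60), Nynrin (0.65) and Robo1 (0.66). These are likenesses over 14 libraries of 4 groups and carry no test.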

How the data were processed

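RNA sequencing counts of 14 libraries were used. The authors deposited raw read counts per Ensembl gene, and no other unit was used. Per the submitters' processing notes, FastQC 0.11.2, Trimmomatic 0.33, STAR 2.4.2a and GRCm38 were used, with no role or order. Which program counted the reads, whether by strand, and on which annotation is not stated; the labels name a directional kit. GENCODE M21 named 48435 of 48795 genes, and 360 IDs had no match.

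Here, edgeR 4.0.16 in R 4.3.3 scaled totals by TMM, kept 16408 genes (filterByExpr, minimum count 10, minimum total 15) and fitted 4 group means over all 14 libraries with quasi-likelihood tests. P-values were adjusted over all genes by Benjamini-Hochberg, with 0.05 as threshold. The common dispersion was 0.948. Both tissues, both genotypes and their difference were compared. Levels between genes were divided by merged exon length. Within groups, 20 pairs of libraries differed by at least 33.1 in chi-square per degree of freedom, so none was a copy.

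Alternatives were RLE and upper-quartile scaling, other filters, DESeq2 1.42.0, limma 3.58.1 voom with quality weights, fits of only the groups compared, raw totals, transcript length, and libraries left out. The fits were tested on simulated data. Fold changes are given for the 6 members read in every library, and for others levels and counts. Fitted values of Fgfr3 and Fgf5 under other settings are given for their sign only, since fits to groups at 0 rest on the prior. In the difference between tissues, pathway lists are given as counts. Per list and comparison, named genes are those called, otherwise those with the smallest p. They are given where their values add to the account. Marker lists covered fibroblasts, keratinocytes, lung epithelium, leukocytes and macrophages, endothelium, mesothelium, adipocytes, skeletal muscle, and Schwann cells and melanocytes. The members, lists and doubted libraries were chosen with earlier results of these data known. Sequences are from RefSeq (GRCm38.p6).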

Additional observations from a re-analysis of the deposited data

Results flagged for a closer look

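In 5 of the 20 groups of 4 or 5 libraries examined (10 members in KO-mLF and WT-mLF), 1 library stood apart from the rest by Dixon's 95% criterion, which chance alone meets in about 1 of 20 groups. For Fgfr3 and Fgfr4 in KO-mLF, with 3 of 4 libraries at 0, any count in the fourth meets it, so these 2 are not to be read against that rate. Fgf9 was read at 23.0 CPM in WT-mLF 4, against 5.58 to 7.78 CPM in the other 4 wild-type lung libraries. Fgfr1 was read at 407 CPM in WT-mLF 1, against 255 to 291 CPM in the others, and that library was one of those with Xist. Fgfr3 was read at 1.60 CPM in WT-mLF 1, against at most 0.412 CPM in the others. WT-mLF 1 had the lowest TMM factor of all libraries, 0.832. On raw totals Fgfr1 was at 339 CPM in WT-mLF 1 and 299 CPM in WT-mLF 23, the next highest. Fgfr3 was at 1.33 and 0.423 CPM in the same order. The criterion was not applied to raw totals, so the 5 groups are not shown to exceed the chance rate. Fgfr3 was also read at 0.102 CPM (2 counts) in KO-mLF 10, with 0 in the other 3, which is within counting error of 0. Fgfr4 was read at 7.80 CPM (153 counts) in KO-mLF 10, with 0 counts in the other 3 Rel -/- lung libraries. KO-mLF 10 is the library whose treatment label says skin, and the skin libraries read at most 1.60 CPM of Fgfr4. Its leukocyte and macrophage markers summed to 21087 CPM, as in other lung libraries, against at most 157 CPM in a skin library. Its keratinocyte marker Krt5 was at 0.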

How the results depend on the processing

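No paired analysis was possible because the library numbers are not shared between groups. Genes called in KO-mLF against WT-mLF (0 as reported) were 5 with no low-count filter, 51 with DESeq2, 6 with voom, 6 without the 4 libraries with the most genes at 0, 2 without KO-mDF 19 and 20, 2 with only the groups compared, and 0 to 2 with 1 library left out. In KO-mDF against WT-mDF (0) they were 3 with upper-quartile factors, 58 without filter, 153 with DESeq2, 300 with voom, 87 without those 4 libraries, 439 without the 2 Xist-positive libraries, 55 without KO-mDF 19 and 20, 2 with only the groups compared, and 0 to 421 with 1 left out (421 without WT-mDF 22). For the difference (0) they were 31, 100 and 174 without filter, with DESeq2 and with voom, 31, 365 and 31 without those 4, the Xist-positive or KO-mDF 19 and 20, and 0 to 370 with 1 left out. In WT-mDF against WT-mLF (487) they were 782 without filter, 1233 with DESeq2, 858 without those 4, 1044 without the Xist-positive, and 258 to 1050 with 1 left out. In KO-mDF against KO-mLF (829) they were 1770 with DESeq2, 4501 with voom, 2171 without those 4, 409 without KO-mDF 19 and 20, and 410 to 1323 with 1 left out. The cause was not tested.

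Of 976 fold changes of members and called pathway genes recomputed, 892 kept direction and side of the threshold, 39 lost and 3 gained the call, and 42 changed sign. Without KO-mDF 19 and 20 the sign changed in KO-mDF against WT-mDF for Fgf2 (-0.66), Fgf7 (-0.68), Fgfr1 (-0.013) and Fgfr2 (-1.40), in the difference for Fgf2 (-0.15), Fgf10 (-0.21) and Fgfr2 (-1.20), and in KO-mDF against KO-mLF for Fgf2 (-0.78), Fgf10 (-0.060) and Fgfr3 (-2.39). Without the Xist-positive libraries it changed in KO-mDF against WT-mDF for Fgf2 (-0.22), Fgf7 (-0.21) and Fgf9 (3.22), in KO-mLF against WT-mLF for Fgfr2 (0.0825), and in WT-mDF against WT-mLF for Fgf5 (-1.61). Without the 4 libraries with the most genes at 0 it changed for Fgf10 in KO-mDF against WT-mDF (0.93), Fgf9 in the difference (-1.37), Fgf7 (-0.24) and Fgf10 (-0.82) in WT-mDF against WT-mLF, and Fgfr2 in KO-mDF against KO-mLF (0.24), and with voom for Fgf9 in KO-mDF against WT-mDF (1.29) and Fgfr2 in KO-mDF against KO-mLF (0.51). With 1 library left out, values in KO-mDF against WT-mDF ran from -0.26 to 0.80 for Fgf2, -0.25 to 1.09 for Fgf7, -1.54 to 3.20 for Fgf9 and -0.84 to 0.61 for Fgf10. They ran from -0.74 to 4.00 for Fgf9 in the difference, -0.22 to 0.33 for Fgf2 in KO-mDF against KO-mLF, -0.68 to 0.14 for Fgfr2 in KO-mLF against WT-mLF, and in WT-mDF against WT-mLF -0.40 to 0.91 for Fgf7, -0.74 to 0.66 for Fgf10 and -1.41 to 11.49 for Fgf5. No sign reversal concerned Fgf7 or Fgfr1 in KO-mDF against KO-mLF, the members called as reported, whereas Fgf10 and Fgfr3, called there under other settings, did reverse. WT-mDF, with 2 libraries, 1 of them shallow, limits every comparison it enters.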

Other observations

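Of the 16 other FGF ligand genes, 8 had enough counts to be tested, and Fgf11 had counts in 13 of the 14 libraries. Fgf11, an FGF homologue that stays inside the cell, was read at 14.7, 17.3, 9.08 and 17.2 CPM in KO-mLF and 10.6, 14.6, 18.9, 14.4 and 15.3 CPM in WT-mLF. Its skin levels were 1.60, 0.798 and 0.721 CPM in KO-mDF and 0 and 5.76 CPM in WT-mDF. Every lung library thus exceeded every skin library. Over all genes 8.54% were lower without overlap in KO-mDF against KO-mLF, and 10.7% in WT-mDF against WT-mLF. In KO-mDF against KO-mLF the adjusted p of Fgf11 was 0.0986 with edgeR, 0.00118 with DESeq2 and 0.000221 with limma-voom. These tools called 5.05%, 10.8% and 27.4% of all genes there. Among wild types limma-voom called Fgf11 (0.0194, with 4.03% of all genes) and DESeq2 did not (0.160, with 7.51%).

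Fgf5, known as a stop signal of hair growth, had 2.01, 1.41 and 2.38 CPM in KO-mDF, against 0 and 36.8 CPM in WT-mDF. In WT-mDF against WT-mLF it had 115 counts and 1 count, a ratio of 486 per TMM-scaled total. The 95% counting interval of 85.5 to 19370 rests on pooled counts and leaves out the spread between libraries. EdgeR called Fgf5 at an adjusted p of 0.0247. All 115 counts came from WT-mDF 22, the shallow library with Xist, and WT-mDF 11 had 0. The call ended without that library (log2 fold change -1.41, adjusted p 0.727), without any 1 of the 5 WT-mLF libraries (0.0504 to 0.0765), and with voom (0.778).

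Fgf16 and Fgf13 were each read mainly in 1 tissue. Fgf16 had 0.510 to 3.38 CPM in KO-mLF and up to 5.56 CPM in WT-mLF, with 0 in all 5 skin libraries. Fgf13 had 0.802 to 6.85 CPM in KO-mDF and up to 5.44 CPM in WT-mDF, against at most 0.0913 CPM in KO-mLF and 1.17 CPM in WT-mLF. In KO-mDF against KO-mLF both were called by DESeq2 (0.0347 for Fgf13 and 0.00512 for Fgf16) and by limma-voom (0.00188 and 0.000479), but not by edgeR. DESeq2 called 10.8% and limma-voom 27.4% of all genes in that comparison. Fgf23, a hormone of phosphate balance made by bone cells, reached 12.7 CPM in WT-mLF 1 and at most 4.79 CPM in KO-mLF. Fgf3, Fgf4, Fgf15, Fgf17 and Fgf20 had 0 counts in all 14 libraries.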
